A study of Mus musculus with 4 samples.

Results

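The genes described here make and pack peptide hormones: *Pcsk1*, *Pcsk2*, *Pcsk1n*, *Cpe*, *Pam*, *Chga*, *Chgb*, *Scg2*, *Scg3* and *Scg5*. They were chosen by name, with no measured value in the rule, and are 10 of the 31053 genes counted. The counts come from nuclei of punches of the hypothalamic arcuate nucleus (ARC) of wildtype male C57BL/6J mice, 10 weeks old, after 3 weeks of DOCA-salt (a pellet of the mineralocorticoid deoxycorticosterone acetate under the skin, with saline offered beside water) or of Sham (surgery without the pellet, water alone). Each treatment had 2 pools of nuclei with 2 mice in each, and the pool (DOCA-salt 1, DOCA-salt 2, Sham 1 and Sham 2, always given in this order below) was the replicate. The study asked which genes of which ARC cell types differ under DOCA-salt, and here the question is put to these genes across neurons gated by a neuropeptide and across glia.

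A neuropeptide starts as a long precursor that enters the secretory granule and is cut there. The convertases encoded by *Pcsk1* and *Pcsk2* cut after pairs of basic residues, the carboxypeptidase encoded by *Cpe* trims the basic residues left at the cut, and the enzyme encoded by *Pam* converts a terminal glycine to the amide that many peptides need for activity. *Pcsk1n* encodes proSAAS, an inhibitor of the first convertase, and *Scg5* encodes 7B2, a chaperone and inhibitor of the second. The granins (*Chga*, *Chgb*, *Scg2*, *Scg3*) are acidic proteins that gather precursors into the granule and are themselves cut into peptides. In the ARC these enzymes act on the precursors of AgRP and POMC neurons, among others, and loss of either *Pcsk1* or *Cpe* is known for causing obesity.

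Nuclei were put into 14 classes by marker genes, none of them a member of the set. A neuropeptide gate took neurons with at least 5 UMIs (unique molecular identifiers, each a captured transcript) of *Agrp*, *Pomc*, *Tac2*, *Sst*, *Ghrh*, *Pmch* or *Oxt* and at least 10 times the number that free RNA would give, judged from the share of that gene in the glia of the same pool. The gates held 408, 427, 553, 727, 175, 289 and 150 nuclei in this order, 23966 neurons passed no gate and are called other neurons, and 3981 nuclei were glia. Values are UMIs of a gene for every 1000000 UMIs of the class and pool (CPM). For the *Agrp* and *Pomc* gates a second arcuate peptide, not used to draw the gate, was high in it. *Npy* was at 3180, 2317 and 2793 CPM in the *Agrp* gate of the pools other than DOCA-salt 2 against 108, 69.8 and 112 CPM in other neurons. *Cartpt* was at 2122, 1048, 1150 and 1532 CPM in the *Pomc* gate against 273.5, 113, 119.6 and 179 CPM. It was not particular to that gate, with 3791, 8588, 589 and 7640 CPM in the *Pmch* gate and 1085, 853, 706 and 837 CPM in the *Ghrh* gate. The peptide gene itself reached 80980 CPM in the *Oxt* gate of DOCA-salt 2, which lowers the CPM of all other genes in that sum.

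The pools differed in make-up and depth. After filtering they had 10307, 18907, 2203 and 7759 nuclei with a median of 2401, 2534, 8215 and 3278 UMIs each, and any 2 pools shared between 5 and 49 barcodes. DOCA-salt 2 stood apart: its *Agrp* gate held 1 nucleus (264, 34 and 109 in DOCA-salt 1, Sham 1 and Sham 2), its *Pmch* gate held 271 (6, 5 and 7), and *Hcrt*, the precursor of the orexins of the lateral hypothalamus, was at 803.5 CPM in its other neurons (1.81, 15.6 and 2.51 CPM). A class entered a test with the pools in which it had at least 10 nuclei, so every value of the *Pmch* gate is tested on DOCA-salt 2 alone, and the *Agrp*, *Ghrh* and *Oxt* gates on 3 pools.

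*Pcsk1* lies on chr13:75089826-75134861 and *Pcsk2* on chr2:143546156-143816285 (GRCm38, both on the plus strand). *Pcsk2* was far above other neurons in the *Pmch* gate, whose neurons make melanin-concentrating hormone, and *Pcsk1* was above other neurons in the *Oxt*, *Pomc* and *Tac2* gates. *Pcsk2* was below other neurons in the *Ghrh*, *Tac2* and *Agrp* gates. No gate was called higher for both.

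**Figure D1:**
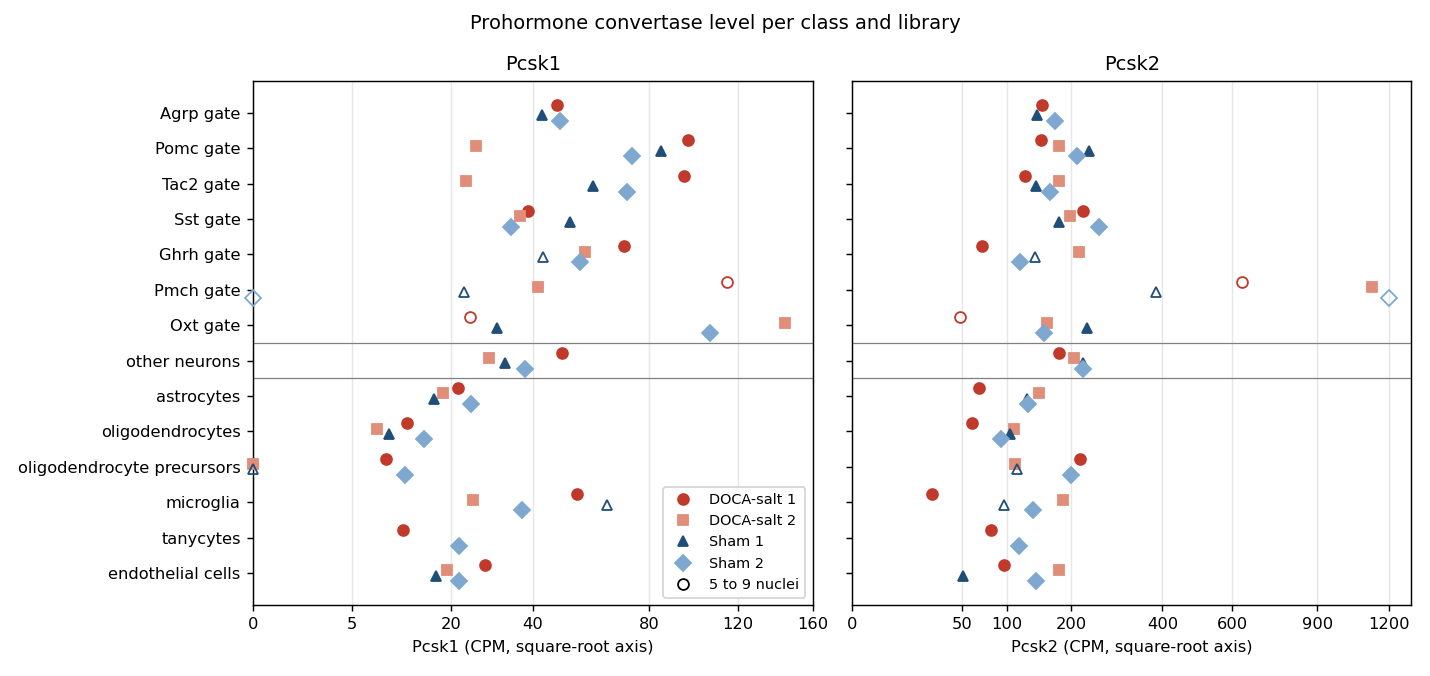
CPM of *Pcsk1* (left) and *Pcsk2* (right) on a square-root axis for each class (rows) and pool (symbols), with open symbols for sums of 5 to 9 nuclei and sums of fewer nuclei not drawn. *Pcsk2* in the *Pmch* gate lies between 385 and 1199 CPM in all 4 pools while other neurons lie between 178 and 222 CPM, and *Pcsk1* in the *Oxt* gate is at 144.5 and 107 CPM in DOCA-salt 2 and Sham 2 but at 24.0 and 30.5 CPM in the others.

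In the *Pmch* gate *Pcsk2* was at 632, 1122, 385 and 1199 CPM, against 178, 205, 222 and 222 CPM in other neurons. Every pool lay above the other neurons of all 4 pools, although 3 of the values rest on 5 to 7 nuclei and have wide 95% Poisson intervals (435 to 887, 224 to 616 and 878 to 1600 CPM; these cover counting error only). On the 271 nuclei of DOCA-salt 2 the log2 difference from other neurons was 2.50 ± 0.14 (standard error, SE) with a false discovery rate (FDR) of 1.62e-24 in the quasi-likelihood test of edgeR. This class is 1 sample in the test, so its SE and FDR take the spread between pools from the other classes and assume that the *Pmch* gate varies like them, and no call in it has a replicate of its own. Of all 13724 genes, 6.11% were called in this gate at an FDR under 0.05, and 5 of the 10 members were. When sums of 5 to 9 nuclei were let in, an alternative chosen after seeing the data, the difference was 2.21 ± 0.14. With each nucleus of DOCA-salt 2 thinned to 1000 UMIs (32 shallower *Pmch* nuclei, 589 other neurons and 1102 glia left out), *Pcsk2* was found in 62.3% of *Pmch* nuclei, in 18.1% of other neurons and in 11.8% of glia. The shares without thinning were 86.0%, 45.6% and 14.7%, where the median nucleus had 3785, 3010.5 and 977 UMIs.

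*Pcsk1* differed from other neurons less than *Pcsk2* did in the *Pmch* gate of DOCA-salt 2, in the same direction. In Sham 1 and Sham 2 it had 1 UMI and 0 UMIs in this gate. Its values in the *Pmch* gate were 115, 41.3, 22.6 and 0 CPM, and the log2 difference in DOCA-salt 2 (0.71 ± 0.27, FDR 0.12) was not called. For every 100 UMIs of *Pcsk2*, DOCA-salt 2 held 3.69 UMIs of *Pcsk1* in the *Pmch* gate and 13.9 in other neurons. This ratio is set here against the same ratio in other classes and says nothing of which enzyme is more abundant.

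*Pcsk1* was at 96.6, 25.4, 85.2 and 73.2 CPM in the *Pomc* gate and at 48.8, 28.5, 32.3 and 37.9 CPM in other neurons. The product of *Pcsk1* makes the first cuts in POMC. The *Pomc* gate was above other neurons in 3 of 4 pools, and DOCA-salt 2, with 19 nuclei and 3 UMIs, was not. Here the log2 difference was 0.98 ± 0.16 (FDR 9.33e-06), in a gate where 2 members and 5.93% of all genes were called.

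The *Oxt* gate, of neurons making oxytocin, had the largest log2 difference of *Pcsk1*, 1.90 ± 0.21 (FDR 9.63e-10). Its values were 24.0, 144.5, 30.5 and 107 CPM, from 1, 87, 4 and 30 UMIs. Pools with 52 or more *Oxt* nuclei were high and those with 6 and 17 nuclei were at or below the level of other neurons. The call rested on DOCA-salt 2, since without that pool the log2 difference was 1.20 with an FDR of 0.0936. *Pcsk1* was the only member called in the *Oxt* gate (0.845% of all genes were). The gate also held RNA of *Avp*, the vasopressin precursor, at 1659, 7705, 502.8 and 4907 CPM. Other neurons had it at 3.26, 424, 81.7 and 147 CPM. In the gate *Avp* was highest in DOCA-salt 2 and Sham 2, the pools with high *Pcsk1*, and its part in the *Pcsk1* values was not tested.

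The *Tac2* gate took neurons with transcripts of the neurokinin B precursor, and those of DOCA-salt 2 (228 of 553 nuclei) had *Hcrt* at 1725 CPM, against 0.988, 3.38 and 3.80 CPM in the other pools. The part of this in the values of the gate was not tested. *Pcsk1* was at 94.8, 23.2, 59.1 and 71.4 CPM in it. It was above other neurons in 3 pools and below them in DOCA-salt 2 (0.64 ± 0.14, FDR 0.00347). Without DOCA-salt 1 (0.54, FDR 0.186) or Sham 2 (0.56, FDR 0.231), and with DESeq2 (0.69, FDR 0.302), this difference was not called, and without DOCA-salt 2 it was 0.92 (FDR 5.26e-07). *Pcsk2* was at 124.5, 178, 140.1 and 163 CPM there, below other neurons in all 4 pools (−0.47 ± 0.11, FDR 0.0063). That call was lost without Sham 1 (−0.41, FDR 0.0574) or Sham 2 (−0.44, FDR 0.226), with DESeq2 (FDR 0.284), with a gate of 10 UMIs (FDR 0.136) and with libraries thinned to 1 depth (FDR 0.055). In the *Tac2* gate 4 members and 2.03% of all genes were called.

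*Pcsk2* was also lower in the *Ghrh* gate, whose neurons release growth hormone-releasing hormone, with 70.3, 213, 139 and 117 CPM. DOCA-salt 2 alone did not lie below its other neurons. The log2 difference was −0.91 ± 0.17 (FDR 0.000206) and was lost without DOCA-salt 1 (−0.62, FDR 0.0729) or Sham 2 (−0.78, FDR 0.187). The *Pcsk1* values of 70.3, 56.1, 42.8 and 54.6 CPM lay above other neurons in every pool but missed the threshold (0.53 ± 0.23, FDR 0.257). In the *Ghrh* gate 2 members and 3.39% of all genes were called.

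Across gates the number of *Pcsk1* UMIs for every 100 *Pcsk2* UMIs spread widely. *Pomc* neurons had 65.4, 14.3, 36.6 and 34.9, *Tac2* neurons 76.2, 13.0, 42.2 and 43.7, and other neurons 27.4, 13.9, 14.6 and 17.1. In these gates DOCA-salt 2 was the pool nearest to other neurons, and the other 3 pools lay above their own other neurons and above those of every pool. *Ghrh* neurons had 100, 26.3, 30.8 and 46.5 (8 nuclei in Sham 1), above their own other neurons in each pool. *Agrp* neurons had 31.6, 30.0 and 28.0 in the pools other than DOCA-salt 2, above the other neurons of every pool. *Oxt* neurons had 50.0, 91.6, 13.3 and 69.8, below their own other neurons in Sham 1 only. *Sst* neurons (17.5, 18.4, 28.9 and 13.4) overlapped other neurons.

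The 2 partners of the convertases differed less between neurons. *Pcsk1n* (chrX:7919822-7924410, plus strand) was higher in the *Agrp* gate, with 4254, 3001 and 2430 CPM in the 3 pools tested against 2148, 1894 and 1902 CPM in other neurons. All 3 pools lay above all other neurons of these pools, with a log2 difference of 0.65 ± 0.10 (FDR 1.78e-06). Of the 5 members called in the *Agrp* gate (9.57% of all genes were) it was the only one that was higher. *Scg5* (chr2:113776362-113829121, minus strand) was called in no gate, and its log2 differences lay between −0.12 and −0.02.

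*Cpe* (chr8:64592542-64693054, minus strand) was close to other neurons in most gates. It was lower in the *Agrp* gate, at 542, 668 and 628.5 CPM in the pools tested against 697, 815 and 764 CPM, by a log2 difference of −0.37 ± 0.11 (FDR 0.0172). This call was lost without DOCA-salt 1 (−0.27, FDR 0.243), Sham 1 (−0.37, FDR 0.0637) or Sham 2 (−0.35, FDR 0.132). It was also lost with DESeq2 (FDR 0.151) and with a gate of 3 UMIs (−0.24, FDR 0.169). *Pcsk2* was called lower in the *Agrp* gate as well (−0.40 ± 0.13, FDR 0.0415), a call that 11 of 15 alternatives did not keep, those without DOCA-salt 1, Sham 1 or Sham 2 among them.

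*Pam* (chr1:97795114-98095646, minus strand, with exons that overlap those of *B230216N24Rik* on the same strand) was called in no gate but the *Pmch* gate. It was at 517, 319, 294 and 417 CPM there against 372, 205, 262 and 307 CPM in other neurons. Each pool was higher than its own other neurons, and the log2 difference in DOCA-salt 2, with the spread taken from the other classes, was 0.69 ± 0.15 (FDR 0.000645).

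The granin genes are *Chga* (chr12:102554969-102565028, plus strand), *Chgb* (chr2:132781278-132795079, plus strand), *Scg2* (chr1:79434669-79440120, minus strand) and *Scg3* (chr9:75643189-75684056, minus strand). Granin genes are known to answer to cAMP through the cAMP response element, TGACGTCA. RefSeq promoters, 250 bases before to 50 after each start on GRCm38.p6, were held for 9 of the 10 members. TGACGTCA, which reads the same on both strands, stood in the promoters of *Pcsk1*, *Scg2* and *Chgb* and in 1.79% of all 32851 promoters. The variant TGACGTAA, searched on both strands, stood in that of *Chga* and in 0.499% of all. These promoters are printed because they hold the element or its variant. They run from 110 to 11 bases before the start, 5′ to 3′ on the strand of the gene, with the element in capitals.
*Pcsk1* (chr13:75089747-75089846, plus strand): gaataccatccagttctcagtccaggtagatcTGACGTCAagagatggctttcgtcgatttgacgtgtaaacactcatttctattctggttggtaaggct
*Scg2* (chr1:79440037-79440136, minus strand): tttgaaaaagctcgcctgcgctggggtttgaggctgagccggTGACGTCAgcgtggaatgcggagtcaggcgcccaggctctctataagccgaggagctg
*Chgb* (chr2:132781532-132781631, plus strand): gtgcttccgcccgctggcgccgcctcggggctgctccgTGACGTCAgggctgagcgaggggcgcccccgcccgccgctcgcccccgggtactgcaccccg
*Chga* (chr12:102554831-102554930, plus strand): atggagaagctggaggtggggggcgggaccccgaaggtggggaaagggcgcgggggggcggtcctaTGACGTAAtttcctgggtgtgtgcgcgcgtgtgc
The element begins 78, 68, 72 and 44 bases before the start in these promoters. Its first letters, TGACG, were found on either strand in the promoters of 7 members and in 20.8% of all promoters. Starts are those of RefSeq, and GENCODE begins *Pcsk1*, *Scg2* and *Chgb* farther upstream, so part of the *Pcsk1* and *Scg2* stretches and the whole *Chgb* stretch lie within the GENCODE gene. A match of letters is a description, and binding was not measured.

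The granins did not move as a block between gates. *Chga* was higher in the *Pmch* gate, with 325.5, 481, 249 and 469 CPM against 194, 300.5, 248 and 201 CPM in other neurons. DOCA-salt 2, the 1 pool tested, gave a log2 difference of 0.91 ± 0.13 (FDR 6.3e-08, again with the spread of the other classes), while Sham 1, with 5 nuclei, was level with its other neurons. *Chga* was lower in the *Agrp* (−0.37 ± 0.11), *Sst* (−0.38 ± 0.09) and *Tac2* (−0.36 ± 0.09) gates, with FDRs of 0.0131, 0.00671 and 0.00729. These calls depended on the gate and on single pools. A gate of 3 UMIs lost all of them (−0.23, −0.27 and −0.28 in the *Agrp*, *Sst* and *Tac2* gates, with FDRs of 0.207, 0.12 and 0.0643). A gate of 10 UMIs lost the calls in *Sst* (−0.23, FDR 0.396) and *Tac2* (−0.20, FDR 0.595) neurons. Libraries thinned to 1 depth lost the call in *Sst* neurons (−0.29, FDR 0.137). In the *Agrp* gate the call was lost without DOCA-salt 1 (−0.24, FDR 0.421) or Sham 2 (−0.32, FDR 0.185), and the calls in the *Sst* and *Tac2* gates were lost without DOCA-salt 1, DOCA-salt 2 or Sham 2 (in the *Sst* gate −0.36, −0.34 and −0.31 with FDRs of 0.0653, 0.104 and 0.318, in the *Tac2* gate −0.28, −0.34 and −0.31 with FDRs of 0.269, 0.0629 and 0.196).

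*Scg2* was higher in the *Sst* gate, at 849, 925, 1294 and 1064 CPM against 630.3, 637.5, 929 and 896 CPM. All 4 pools were above their own other neurons (0.37 ± 0.09, FDR 0.0137), a call lost with DESeq2 (0.42, FDR 0.0644) and with a gate of 3 UMIs (0.24, FDR 0.406). With 1058, 604, 1214 and 1174 CPM it was higher in the *Tac2* gate too (0.34 ± 0.09, FDR 0.025), although not in DOCA-salt 2, and this call was lost without DOCA-salt 1, Sham 1 or Sham 2 (0.24, 0.34 and 0.37 with FDRs of 0.408, 0.0842 and 0.144). DESeq2 (0.38, FDR 0.149) and a gate of 3 UMIs (0.30, FDR 0.0892) lost the *Tac2* call as well. *Scg2* was lower in the *Pmch* gate of DOCA-salt 2, with 357 CPM against 637.5 CPM (−0.62 ± 0.17, FDR 0.011), but in Sham 1 the 5 *Pmch* nuclei were at 1155 CPM, above other neurons.

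*Chgb* was higher in the *Sst* gate (0.30 ± 0.09, FDR 0.0432) and lower in the *Agrp* gate (−0.39 ± 0.10, FDR 0.00585). In *Sst* neurons it was at 363, 379, 451 and 474 CPM against 280.4, 309, 385 and 355 CPM, higher in each pool. Both calls were lost without DOCA-salt 1 or Sham 2 (in the *Sst* gate 0.34 and 0.31 with FDRs of 0.0534 and 0.388, in the *Agrp* gate −0.34 and −0.31 with FDRs of 0.11 and 0.235). The call in *Sst* neurons was also lost with a gate of 3 UMIs (0.17, FDR 0.723) and with libraries thinned to 1 depth (0.31, FDR 0.0713). In the *Sst* gate 3 members and 1.71% of all genes were called.

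*Scg3*, which ties the granin aggregate to the granule membrane, was higher in the *Pmch* (1 pool, 0.77 ± 0.13, FDR 6.68e-06), *Ghrh* (0.44 ± 0.10, FDR 0.00594) and *Pomc* (0.29 ± 0.09, FDR 0.0314) gates. In the *Ghrh* gate it was at 251, 179.6, 332 and 316 CPM against 159, 141, 202 and 228 CPM, above other neurons in each pool. Without DOCA-salt 1 (0.44, FDR 0.074) or Sham 2 (0.53, FDR 0.0718) that difference was not called, and in the *Pomc* gate the call was lost without DOCA-salt 1, Sham 1 or Sham 2 (0.34, 0.32 and 0.29 with FDRs of 0.0595, 0.0519 and 0.276). The *Pomc* call was also lost with a gate of 3 UMIs (0.22, FDR 0.159), with doublets left out (0.26, FDR 0.121) and with no filter of low counts (0.30, FDR 0.0737).

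**Figure D2:**
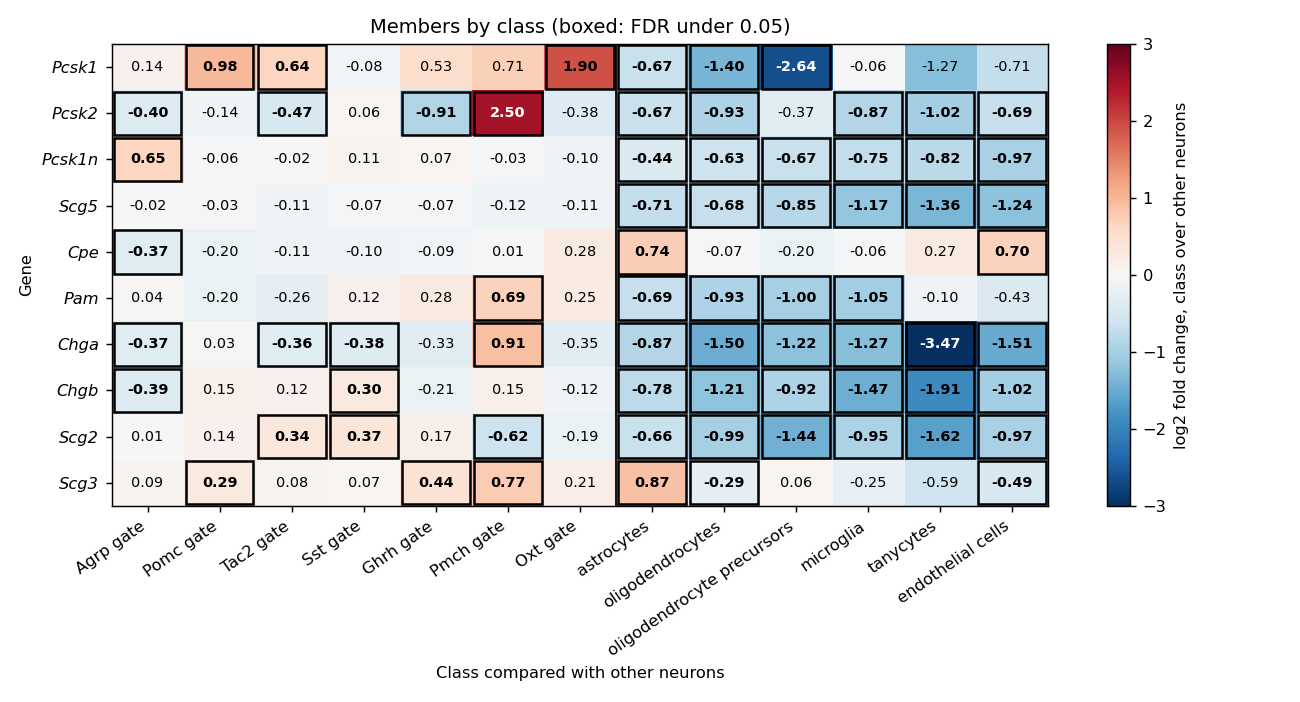
Log2 difference of each member (rows) between a class (columns) and other neurons, from 1 edgeR fit with the pool as a block. Boxes mark an FDR under 0.05 and colours end at a log2 difference of 3, so *Pcsk2* in the *Pmch* gate (2.50) has the deepest red of the neuropeptide gates. Values in the glial and endothelial columns are below 0 apart from *Cpe* in astrocytes (0.74), endothelial cells (0.70) and tanycytes (0.27), and *Scg3* in astrocytes (0.87) and oligodendrocyte precursors (0.06).

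Over the 70 tests of a member in a neuropeptide gate, 22 were called. Of these calls, *Pcsk1* in the *Pomc* gate and *Pcsk1n* in the *Agrp* gate were the 2 kept under all 15 alternatives, each pool left out in turn among them. *Pcsk2*, *Chga*, *Pam* and *Scg3* in the *Pmch* gate were kept under the 14 alternatives that gave a value, but without DOCA-salt 2 they could not be tested. The medians of the 10 members lay between −0.10 and 0.42 across gates, beside medians of all genes between −0.10 and −0.04.

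Most members were lower in glia than in neurons, and *Cpe* and *Scg3* in astrocytes were the exceptions. Astrocytes had *Scg3* at 326, 225, 303 and 374 CPM against 159, 141, 202 and 228 CPM in other neurons, and *Cpe* at 1419, 1114, 1035 and 1172 CPM against 697, 834, 815 and 764 CPM. Both were higher in astrocytes than in the other neurons of the same pool in all 4 pools. Over all pools the 2 classes did not overlap for *Cpe*, and for *Scg3* they did (225 CPM in the astrocytes of DOCA-salt 2 and 228 CPM in the other neurons of Sham 2). The log2 differences were 0.87 ± 0.08 (FDR 1.1e-16) for *Scg3* and 0.74 ± 0.09 (FDR 2.31e-10) for *Cpe*, while the other 8 members were lower by between −0.87 and −0.44. All 10 members were called in astrocytes, where 44.7% of all genes were (21.0% higher and 23.7% lower). Both genes were kept as calls under every alternative.

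*Cpe* was also higher in endothelial cells, with 1583, 1428, 1088 and 836 CPM (0.70 ± 0.12, FDR 1.26e-06). It was not called in oligodendrocytes, their precursors, microglia or tanycytes, where the log2 differences lay between −0.20 and 0.27. Tanycytes, the cells lining the floor of the third ventricle, had *Cpe* at 945 and 919.7 CPM in the 2 pools with at least 10 of them. *Scg3* was called lower in endothelial cells (−0.49 ± 0.18, FDR 0.026) and oligodendrocytes (−0.29 ± 0.11, FDR 0.0333). Of 15 alternatives, 8 and 13 did not keep these calls.

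RNA of neuron genes was also found in glia, so a level there need not be transcription of the glia. A list of 9 neuron genes (*Snap91*, *Sncb*, *Stmn3*, *Syp*, *Nefl*, *Syn1*, *Gad1*, *Slc32a1* and *Slc17a6*), chosen after seeing the data, was found in glia at 40.5% to 57.1%, 46.4% to 63.4%, 46.2% to 78.2% and 43.8% to 59.4% of its level in neurons in the 4 pools. How much of this came from free RNA or from mixed nuclei was not tested. In all glia together the 7 members *Pcsk1*, *Pcsk2*, *Pam*, *Chga*, *Chgb*, *Scg2* and *Scg5* did not exceed the highest of these genes in any pool. *Pcsk1n* exceeded it in DOCA-salt 2 and Sham 2 (63.7% and 61.7%). *Cpe* (167%, 121%, 115% and 124%) and *Scg3* (154%, 134%, 124% and 113%) were above the list and above neurons in each pool. Single classes differed in this. Astrocytes had 2, 3, 2 and 3 members above the highest gene of the list, oligodendrocytes 1, 2, 0 and 3, and endothelial cells 2, 7, 1 and 5.

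**Figure D3:**
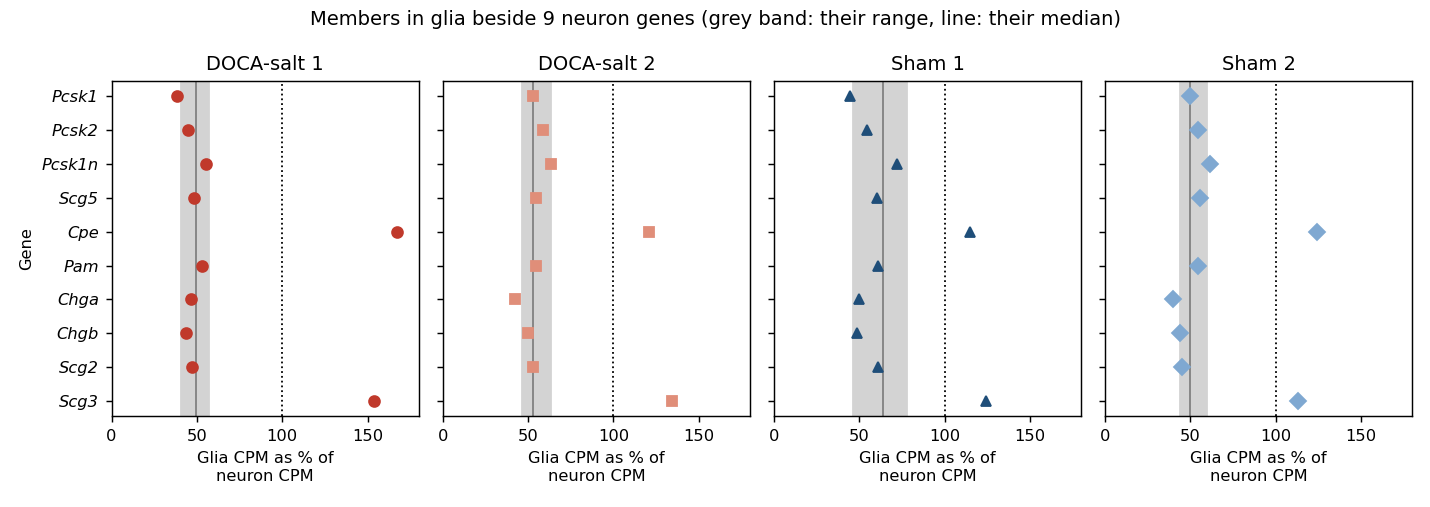
CPM of each member in all glia as a percentage of its CPM in all neurons, per pool, with the range (grey band) and median (grey line) of the 9 neuron genes. *Cpe* and *Scg3* lie above 100% in all 4 pools and the other members lie near or inside the band.

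Oligodendrocytes had 9 members called, all lower (21.8% of all genes were called lower). Their precursors had 7 lower (10.0%), microglia 7 (10.1%) and tanycytes 6 (9.78%). In endothelial cells 7 members were lower (16.6%) and *Cpe* was higher (15.2%). *Chga* was the member farthest below other neurons in tanycytes, by −3.47 ± 0.47 (FDR 1.11e-08), with 34.6 and 7.24 CPM from 3 UMIs and 1 UMI in the pools tested. Median log2 differences of the members were −0.67 in astrocytes, −0.84 in endothelial cells, −0.91 in microglia, −0.88 in oligodendrocyte precursors, −0.93 in oligodendrocytes and −1.14 in tanycytes. All genes had medians of −0.05, −0.22, −0.34, −0.27, −0.10 and −0.18 in the same order. Scaling by the RLE method raised the all-gene median by 0.23 to 0.29 in endothelial cells, microglia, oligodendrocyte precursors and tanycytes. Of the 60 tests, 47 were called and 36 of these were kept under every alternative.

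DOCA-salt and Sham were compared in the 9 classes with at least 10 nuclei in every pool. No member was called in any of them in 87 tests (0 by edgeR and 0 by DESeq2, with 12 and 9 at an unadjusted p under 0.05 and lowest FDRs of 0.414 and 0.0987). Of all genes between 0.0% and 0.0788% were called in these classes, which were, with percentages called, the *Pomc* (0.0106%), *Tac2* (0.0094%) and *Sst* (0.0373%) gates, other neurons (0.0%), astrocytes (0.0595%), oligodendrocytes (0.0673%), endothelial cells (0.0788%), all neurons (0.0%) and all glia (0.00858%). The classes share the same 4 pools, all neurons contain the gates and other neurons, and all glia contain the astrocytes and oligodendrocytes, so like values between classes are not independent. Tests of 2 pools against 2 can miss true differences. In counts simulated with a log2 difference of 1, they called 11.6% of changed genes in the *Pomc* gate, 24.4% in other neurons and 24% in astrocytes. The test of the *Pomc* gate against other neurons called 79.8%. With a log2 difference of 2 these shares were 89.5%, 80%, 96.2% and 93.5%. The changed genes were drawn at random from all genes that passed the filter, whatever their level, so the shares need not hold for the members.

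The gene whose 2 groups lay apart in every class was *Scg2*, which encodes secretogranin II. In all neurons it was at 667.5, 633, 949.9 and 923 CPM. Both DOCA-salt pools lay below both Sham pools here and in each of the other 8 classes, astrocytes (343, 363, 631 and 468 CPM) and oligodendrocytes (211, 283, 446.5 and 372 CPM) among them. The log2 differences lay between −0.69 and −0.44. In all neurons the value was −0.55 ± 0.19 with a p of 0.0245 and an FDR of 0.591, and in astrocytes −0.67 ± 0.26 with an FDR of 0.414. Of the 2266 genes tested in all 9 classes, 3.62% lay lower in DOCA-salt in every class without overlap and 0.794% higher, and *Scg2* was the only member to do either. In all glia *Scg2* was at 47.3%, 53.1%, 61.0% and 45.3% of its level in neurons, within the range of the 9 neuron genes in each pool. How much of the glial treatment differences came from neuron RNA was not tested, for *Scg2* or the other members.

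**Figure D4:**
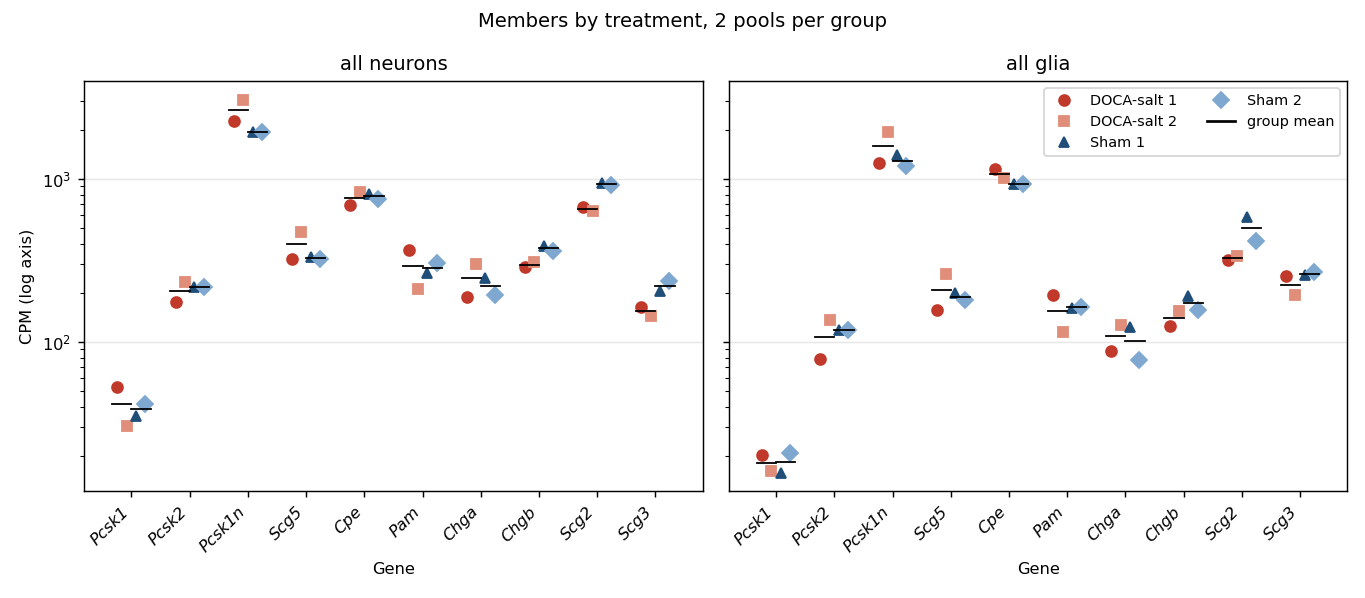
CPM (log axis) of the 10 members in all neurons and all glia of the DOCA-salt and Sham pools, with the mean of each group as a bar. For *Scg2* the DOCA-salt pools (667.5 and 633 CPM in neurons) lie below the Sham pools (949.9 and 923 CPM) in both panels, while *Chga* and *Pam* overlap.

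*Chgb* and *Scg3* were lower in DOCA-salt in most classes but were called in none. *Chgb* was at 286, 308.5, 389 and 360.3 CPM in all neurons (−0.36 ± 0.19, FDR 0.629). Its groups did not overlap in 8 of 9 classes, and in oligodendrocytes they did (0.03 ± 0.32). *Scg3* was at 164, 145, 206 and 235.5 CPM in all neurons (−0.54 ± 0.17, FDR 0.591), lower in 9 of 9 classes and without overlap in 7. DOCA-salt 2 was the lowest pool for *Scg3* in all 9. In a single class 36.6% to 44.0% of all genes did not overlap. The share of all genes without overlap in as many classes as *Chgb* or *Scg3* was not computed. *Chga*, by contrast, overlapped in every class it was tested in, with log2 differences between −0.10 and 0.15.

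*Pcsk1n* was the member with higher values in DOCA-salt in 9 of 9 classes, without overlap in 5. Values in all neurons were 2254, 3064, 1928 and 1937 CPM, with both DOCA-salt pools above both Sham pools (0.44 ± 0.25, FDR 0.645). DOCA-salt 2 was the highest pool in all 9 classes. The share of all genes without overlap in as many classes as *Pcsk1n* was not computed, and in a single class it was 36.6% to 44.0%. *Scg5* was at 324, 475, 329.8 and 323 CPM in all neurons, where DOCA-salt 1 overlapped the Sham pools and DOCA-salt 2 stood above them (0.27 ± 0.26, FDR 0.75). It was highest in DOCA-salt 2 in 8 of 9 classes. These differences move with DOCA-salt 2, the pool with few *Agrp* and many *Pmch* nuclei, and the part of its make-up in them was not tested.

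**Figure D5:**
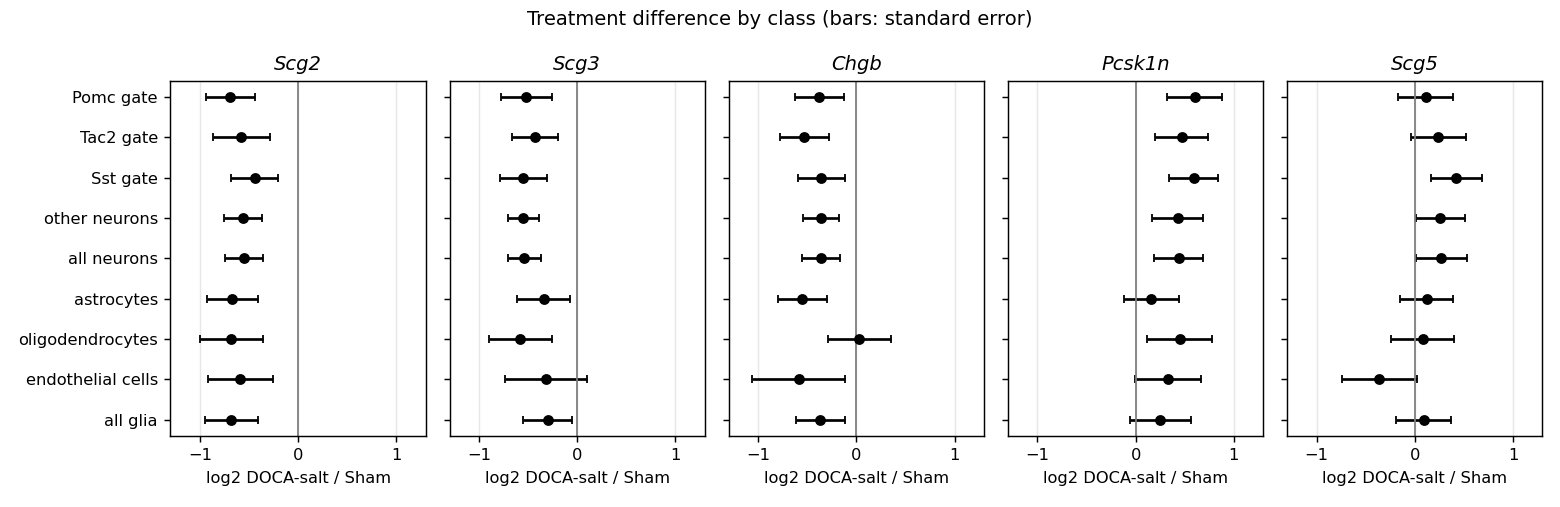
Log2 difference of DOCA-salt over Sham with its SE (bars) for *Scg2*, *Scg3*, *Chgb*, *Pcsk1n* and *Scg5* in the 9 classes tested. *Scg2* lies between −0.69 and −0.44 in every class and *Pcsk1n* between 0.16 and 0.60, and none has an FDR under 0.05.

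The 4 processing enzymes together showed no common direction between treatments. *Pcsk2* was lower in DOCA-salt in 8 of 9 classes, without overlap in 2, and *Pam* in 7 of 9, without overlap in 1. *Cpe* was lower in 5 and higher in 4, without overlap in 2. Over 7 classes *Pcsk1* was lower in 4 and higher in 3. The share of all genes without overlap in as many classes was not computed, and in a single class it was 36.6% to 44.0%. *Pcsk1* was at 52.7, 30.3, 35.2 and 41.8 CPM in all neurons, with the DOCA-salt pools on either side of the Sham pools, and its groups overlapped in each class tested. *Pcsk2* (175, 233, 216 and 217 CPM), *Cpe* (687, 832, 808 and 754 CPM) and *Pam* (368.5, 211, 265 and 303 CPM) overlapped in all neurons as well. *Pcsk2* did not overlap in other neurons (178, 205, 222 and 222 CPM, −0.24 ± 0.18, FDR 0.677). In the *Pomc* gate it did not either (148, 177.5, 233 and 210 CPM, −0.52 ± 0.27, FDR 0.836). In endothelial cells *Cpe* was at 1583, 1428, 1088 and 836 CPM, higher in both DOCA-salt pools (0.66 ± 0.32, FDR 0.453), without overlap and not called.

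Between 2 and 5 members a class had groups that did not overlap. The shares were 50% in the *Pomc* gate, 40% in the *Tac2* gate, 50% in the *Sst* gate, 50% in other neurons, 20% in astrocytes, 33.3% in oligodendrocytes, 50% in endothelial cells, 40% in all neurons and 40% in all glia. Over all genes tested the percentages were 38.1%, 36.7%, 37.4%, 44.0%, 40.6%, 36.6%, 40.4%, 43.4% and 39.5% in the same order, so the members lay near the background.

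Members were called between treatments only when DOCA-salt 1 was left out. DOCA-salt 2 is then compared alone with the 2 Sham pools and is assumed to vary as they do. The share of all genes called in that fit is not given, so nothing is concluded about the members from it. Only the log2 differences of the called members are listed. *Pcsk1n* was higher in the *Pomc* gate (0.98), the *Tac2* gate (0.75), the *Oxt* gate (1.01), other neurons (0.69) and all neurons (0.68). *Scg5* was higher in other neurons (0.55). *Pcsk1* (−1.52), *Scg2* (−0.99) and *Chgb* (−0.68) were lower in the *Tac2* gate and *Scg3* (−0.60) in other neurons. Leaving out any other pool gave 0 calls.

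Whether the treatment difference of a gate differs from that of other neurons was tested in the *Pomc*, *Tac2* and *Sst* gates. Of the 30 tests of members 0 were called by edgeR, 1 of them at an unadjusted p under 0.05 (*Pcsk1n* in the *Sst* gate, 0.20 ± 0.09, p 0.0178). Over all genes 0.0619%, 0.0% and 0.0478% were called. Members were called only without DOCA-salt 1, a fit with 1 DOCA-salt pool for which the share of all genes called is not given. They were *Pcsk1* (−1.18) and *Scg2* (−0.45) in the *Tac2* gate.

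Other genes of the pathway, in 3 lists, were called between gates but not between treatments. At a simulated log2 difference of 1 the treatment tests called fewer changed genes than the test between classes, as given above. The missing calls therefore do not show equal levels. Of 16 other convertases and trimming enzymes, 15 granule cargo and membrane genes and 18 genes of granule biogenesis and release, 0 were called between DOCA-salt and Sham in any class. Of the 14 cargo genes tested between gates and other neurons, 3 were called in the *Agrp* gate (9.57% of all genes were), 6 in the *Pomc* gate (5.93%), 2 in the *Tac2* gate (2.03%), 3 in the *Sst* gate (1.71%), 2 in the *Ghrh* gate (3.39%), 5 in the *Pmch* gate of 1 pool (6.11%) and 0 in the *Oxt* gate (0.845%, with 1 at an unadjusted p under 0.05). Beside the same shares of all genes, 3, 3, 0, 0, 1, 4 and 0 of the 15 enzymes tested were called, with the gates in the same order. Of the 18 biogenesis and release genes 1, 2, 1, 0, 2, 3 and 0 were. *Vgf*, a granin-like precursor, was higher in the *Pomc* gate by 1.62 ± 0.16 and in the *Ghrh* gate by 1.32 ± 0.19. *Nucb2*, the precursor of nesfatin, was higher in the *Pmch* gate by 3.04 ± 0.17. *Resp18*, a granule protein, was higher in the *Pmch* (1.01 ± 0.15), *Agrp* (0.73 ± 0.11), *Pomc* (0.58 ± 0.10) and *Sst* (0.47 ± 0.10) gates.

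Among the enzymes, *Ece1*, an endothelin-converting protease, was higher in the *Pomc* (0.78 ± 0.12), *Agrp* (0.68 ± 0.13) and *Ghrh* (0.55 ± 0.16) gates and endothelial cells (2.12 ± 0.18). *Qpct*, which closes terminal glutamine into a ring, was higher in the *Pmch* gate (1.26 ± 0.17) and in oligodendrocyte precursors (1.97 ± 0.23). Oligodendrocytes had the carboxypeptidases *Cpm* (5.07 ± 0.25) and *Cpd* (1.82 ± 0.13) above other neurons. *Syt7*, a calcium sensor of release, was lower in the *Pomc* gate (−1.08 ± 0.14) and the *Tac2* gate (−0.49 ± 0.11). Each of these differences had an FDR under 0.05 over all genes, the FDR of *Syt7* in the *Tac2* gate being 0.00194. How the calls of these other pathway genes held under the alternatives is not given.

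Over the 46 sums of a class and pool with at least 10 nuclei, most pairs of members rose and fell together across all classes, and fewer did across neurons alone. Of the 45 pairs of members 37 had a Pearson correlation above 0 across all classes (median 0.533), but 22 did across the 26 sums of neurons (median −0.00762). Single pairs across neurons ran from −0.624 (*Pcsk1n* and *Cpe*) to 0.638 (*Chgb* and *Scg2*). Both sets used values centred per pool over all classes, glia included. The share of all gene pairs above 0 was not computed. *Scg2* was the member closest to the mean of the other 9 (r of 0.846) and *Cpe* the farthest (−0.30). Among 12290 other genes, those most like the mean of the members were *Ly6h* (0.959), *Gaa* (0.952), *Atp1b1* (0.946), *Maged1* (0.941), *Rab3c* (0.939), *Zwint* (0.930), *Tubb2a* (0.930), *Disp2* (0.928), *Peg3* (0.926) and *Prkar1b* (0.926). The sums share 4 pools and these values are a description with no test.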

How the data were processed

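Each deposited matrix holds UMI counts, whole numbers for every gene and nucleus, that the authors made from single-nucleus libraries (10x Genomics 3′ kit) with Cell Ranger 3.0.1 on mm10, per the submitters' processing notes, with no further filter. The paper lists shares of intronic, exonic and transcriptome reads apart for each pool, and does not state whether intronic reads entered the counts. Nuclei with over 200 and under 7000 genes, under 25000 UMIs and under 15% mitochondrial UMIs were kept, as in the study (95.75%, 95.71%, 78.54% and 93.2% of barcodes, with 37442185, 69382757, 21255137 and 39528518 UMIs). The members and lists were chosen with earlier results of these data known.

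A glial or endothelial class needed at least 3 UMIs from at least 2 of its markers and at least 10 in 10000 UMIs. Its marker UMIs had to be at least 3 times those of each other such class. Against neuron markers they only had to be more. Tanycytes were assigned first and were not compared with astrocytes. A neuron had no such class and at least 5 UMIs from at least 3 neuron markers. These had to be at least 3 times the marker UMIs of every glial or endothelial class. Nuclei in more than 1 neuropeptide gate (0.0895% to 1.21% of neurons) were left out of single gates, and nuclei in no class were not used. The automatic Scrublet threshold called 0, 0, 2 and 0 doublets, so the highest scores at 0.8% per 1000 nuclei were left out in an alternative only.

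Counts were summed per class and pool and tested with edgeR 4.0.16 in R 4.3.3 (TMM, filterByExpr, quasi-likelihood test, Benjamini-Hochberg FDR over all genes of a comparison, limit 0.05), with the pool as a block between classes and no covariate between treatments. Each SE is the size of the log2 difference divided by the square root of the F statistic of its test. It is derived from the test and need not match the p exactly. The study's own test treats nuclei as replicates and was not used. Alternatives were RLE scaling, no filter, DESeq2 1.42.0, a block for the pool number, gates of 3 and 10 UMIs, libraries thinned to 1 mean depth, shallow nuclei or doublets left out, mitochondrial genes and *Bc1* left out, nuclei in several gates kept, each pool left out, and sums of at least 5 nuclei (added after seeing the data). Named pathway genes were the called ones of lowest FDR, up to 6 a comparison, of 3 lists, and likeness was the Pearson correlation of log2(CPM + 1) centred per pool. Scripts were tested on simulated data. Positions are from GENCODE on GRCm38 and promoters from RefSeq.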

Additional observations from a re-analysis of the deposited data

How the results depend on the processing

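Between treatments 0 members were called in every alternative except that without DOCA-salt 1, a fit with 1 DOCA-salt pool. The difference of treatment effects between a gate and other neurons was likewise called for members only without DOCA-salt 1. Against other neurons the neuropeptide gates had 22 calls, 13 with a gate of 3 UMIs, and 9 to 17 when pools were left out. Without DOCA-salt 2 the *Pmch* gate had no test. Of the 22 calls 10 were lost in no alternative other than one that left out a pool, and 0 reversed. Calls in glial and endothelial classes numbered 47, and 38 to 49 under the alternatives, with 0 reversed. RLE scaling turned the sign of 6 of these 60 differences, none of them called. The shares of all genes called under the alternatives are not given. A fall or rise in these counts is thus not set against all genes, and nothing about the members is concluded from it. With a block for the pool number 0 members were called between treatments. No source says what pools of the same number share, and their deviations from the group means correlated at −0.288 to 0.0468 over the genes of a class, so the number was not taken as a pairing. Limits are the 2 pools a group, the uneven make-up of the pools (1 to 264 *Agrp* and 5 to 271 *Pmch* nuclei a pool), and classes of few nuclei, such as the 65 tanycytes. The cause of the uneven make-up was not tested.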
